A study of Mus musculus with 9 samples.

Results

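The genes described here mark the cells that build and line blood vessels and the connective tissue around them. They comprise 21 genes of endothelial cells, 9 genes of mural cells (pericytes and vascular smooth muscle) and 6 genes of fibroblasts. They were taken by gene symbol, and each of the 36 symbols named 1 of the 24487 rows of the deposited table. RNA sequencing had been performed on 5 libraries of whole midbrain and on 4 libraries of midbrain dopaminergic neurons, all from mice with a C57BL/6 background, to compare these neurons with the tissue that holds them. The labels name no treatment, age, sex, allele or number of animals for either group. How RNA of the dopaminergic neurons was obtained is likewise not in the labels, but the title of the table holds the word bacTRAP, a common name for pulling down tagged ribosomes of a chosen cell type. If that method was used, ribosome-bound RNA was compared with RNA of the whole tissue, and this cannot be told apart from a difference between cells. Nothing in the labels shows that the libraries of a group came from different animals, so the p-values below cover only the spread between these libraries, which may be technical.

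Brain capillaries are tubes of endothelial cells that are sealed by tight junctions, and together with selective transporters and efflux pumps these seals form the blood-brain barrier. Pericytes sit on the capillaries within a shared basement membrane, contractile smooth muscle cells surround arteries and arterioles, and fibroblasts lie around larger vessels and in the meninges. Endothelial platelet-derived growth factor acting on the receptor PDGFRB recruits pericytes, Wnt signals from the brain induce barrier genes in the endothelium, and fibroblasts make fibrillar collagens, small proteoglycans and growth factors.

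Factors of the ETS family, which bind sites with a GGAA core, are known regulators of many endothelial genes, so the sequence just upstream of the genes was read for such sites. RefSeq (GRCm38.p6, the same assembly as mm10) gave upstream sequences for 25 of the 36 genes. The receptor genes Flt1 and Eng are shown because both hold AGGAAG, the junction gene Cldn5 because it does not, and Egfl7 because it kept the highest share of its level of all 36 genes and has several annotated starts. Each run covers up to 250 bases before the start and reads 5′ to 3′ on the strand of the gene, without bases that an annotated exon covers. Capitals mark, on either strand, an ETS site (AGGAAG or its variant with a leading C), a TATA box (TATAAA), a GC box (GGGCGG) or a CArG box. An ETS site on the other strand reads CTTCCT here, and a GC box on the other strand reads CCGCCC.
Flt1 (chr5:147726012-147726261, minus strand): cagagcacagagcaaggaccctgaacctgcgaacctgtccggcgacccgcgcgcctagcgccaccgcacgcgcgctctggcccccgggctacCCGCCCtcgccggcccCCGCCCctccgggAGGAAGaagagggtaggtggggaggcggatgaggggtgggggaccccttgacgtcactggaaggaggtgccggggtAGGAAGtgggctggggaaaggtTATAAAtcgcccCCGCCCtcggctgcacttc
Eng (chr2:32646345-32646594, plus strand): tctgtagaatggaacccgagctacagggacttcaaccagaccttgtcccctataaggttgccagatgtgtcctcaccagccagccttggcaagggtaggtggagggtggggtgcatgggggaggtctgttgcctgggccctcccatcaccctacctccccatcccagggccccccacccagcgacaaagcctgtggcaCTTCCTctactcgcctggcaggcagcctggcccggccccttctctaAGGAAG
Cldn5 (chr16:18776597-18776846, plus strand): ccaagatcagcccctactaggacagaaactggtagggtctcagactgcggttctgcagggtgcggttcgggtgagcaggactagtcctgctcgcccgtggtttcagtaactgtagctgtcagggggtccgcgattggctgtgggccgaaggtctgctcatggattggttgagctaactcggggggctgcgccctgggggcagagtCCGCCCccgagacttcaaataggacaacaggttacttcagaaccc
Egfl7, first start (chr2:26580833-26581055, plus strand): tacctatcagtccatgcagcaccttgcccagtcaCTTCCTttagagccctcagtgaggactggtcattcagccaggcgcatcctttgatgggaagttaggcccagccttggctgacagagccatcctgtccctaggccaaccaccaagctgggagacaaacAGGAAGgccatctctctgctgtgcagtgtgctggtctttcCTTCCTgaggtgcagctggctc
Egfl7, next start (chr2:26583615-26583863, plus strand): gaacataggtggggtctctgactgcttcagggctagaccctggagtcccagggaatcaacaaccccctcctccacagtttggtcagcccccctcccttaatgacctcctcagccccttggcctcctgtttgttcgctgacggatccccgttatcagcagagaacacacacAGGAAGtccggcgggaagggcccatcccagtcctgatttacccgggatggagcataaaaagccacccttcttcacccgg
Egfl7, last start (chr2:26586386-26586629, plus strand): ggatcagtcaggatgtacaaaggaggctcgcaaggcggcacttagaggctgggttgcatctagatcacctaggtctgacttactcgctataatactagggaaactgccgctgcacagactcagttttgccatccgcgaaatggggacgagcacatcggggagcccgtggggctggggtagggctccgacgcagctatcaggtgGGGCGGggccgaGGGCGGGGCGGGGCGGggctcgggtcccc

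AGGAAG on either strand was present upstream of 11 of the 16 endothelial genes with a sequence, upstream of 0 of 6 mural genes and upstream of 1 of 3 fibroblast genes. Counted per sequence, since a gene can have several starts, 14 of 21 endothelial sequences held it (66.7 percent), against 29.5 percent of all 32851 upstream sequences of that length. The variant with a leading C was less frequent among them, in 1 of 21 endothelial sequences (4.76 percent) against 13.6 percent of all, and at least 1 of both forms was in 66.7 percent against 39.2 percent. GGGCGG, the core of the GC box, was in 8 of 21 endothelial sequences (38.1 percent, from 7 of 16 genes) and in 32.7 percent of all sequences. TATAAA was in 2 of 21 endothelial sequences (9.52 percent, from 2 of 16 genes) and in 12.4 percent of all sequences. The CArG box, the site through which serum response factor drives contractile genes, was searched only as CC, 6 bases of A or T, and GG. It was in 0 of 6 mural sequences and in 1 of 6 fibroblast sequences, from Igf2, against 1.47 percent of all. Of the contractile genes only Acta2 had a sequence, and looser forms of the box were not searched, so this count says little about contractile genes. These matches describe letters in a short window and show no binding.

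The table holds FPKM, that is sequenced fragments normalised for the length of the transcript and the size of the library, and no read counts. The values of single-exon receptor genes, read as whole numbers of reads, gave a depth of about 16.2 to 33.5 megareads for whole midbrain and of 47.2 to 62.5 megareads for dopaminergic libraries, and 1 read per 1000 positions is worth 0.0299 to 0.0617 FPKM in the former and 0.0160 to 0.0212 FPKM in the latter. Whole midbrain library 2 stood apart from its group: across genes, which are not independent replicates, its log2 values correlated with the rest at 0.9033 to 0.9057 (Pearson's r), against 0.9471 to 0.9621 among the others. The labels of the neurons were checked on 10 dopaminergic markers, all of which rose. Th, tyrosine hydroxylase, stood at 43.7 to 51.5 FPKM in whole midbrain and at 1491 to 1722 FPKM in dopaminergic libraries, and the dopamine transporter gene Slc6a3 at 64.5 to 77.6 and 1126 to 1248 FPKM.

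Vessel and fibroblast genes were lower in dopaminergic neurons than in whole midbrain, and the level that remained differed widely between genes. Without a filter on low values, all 36 genes were called lower in dopaminergic neurons (limma on log2(FPKM + 1), Benjamini-Hochberg adjusted p under 0.05), against 34.2 percent of all genes that were lower and 25.9 percent that were higher. When the mean over the 9 libraries had to reach 1 FPKM, 33 genes were tested and 33 were lower, namely 20 endothelial, 9 mural and 4 fibroblast genes, against 36 percent of 13106 genes tested that were lower and 38.3 percent that were higher. The genes Tie1, Col1a1 and Col3a1 did not pass that filter, and the others passed it through their level in whole midbrain, so the filtered count alone shows little. Without whole midbrain library 2, 31 genes passed the filter and 31 were lower, against 38.4 percent of all genes, and with FPKM rescaled to TPM it was 33 of 33, against 59.1 percent. Every dopaminergic library lay below every whole midbrain library for 35 of the 36 genes, against 34.3 percent of the 13389 genes with a whole midbrain mean of at least 1 FPKM. Igf2 was the exception. In bulk RNA, fewer cells of a type and less RNA per cell cannot be told apart.

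The share of the whole midbrain level that was left, that is the FPKM in a dopaminergic library as a percent of the mean FPKM of the 5 whole midbrain libraries, ranged widely among the 36 genes. Less than 5 percent was left for 21 genes, comprising 16 of 21 endothelial, 4 of 9 mural and 1 of 6 fibroblast genes, against 4.03 percent of the 13389 genes above. Between 5 and 10 percent was left for 7 genes (Kdr, Pdgfrb, Abcc9, Tagln, Dcn, Lum and Col1a2) and at least 10 percent for 8 (Esam, Slc2a1, Abcg2, Egfl7, Col4a1, Col4a2, Col1a1 and Igf2). The median endothelial gene kept 1.64, 1.81, 1.45 and 3.78 percent in dopaminergic libraries 1 to 4, the median mural gene 4.36, 4.95, 4.18 and 7.17 percent, and the median fibroblast gene 5.62, 10.03, 4.35 and 7.39 percent. The endothelial medians lay below the mural medians in all 4 libraries without overlap, while the mural and fibroblast medians overlapped. Over all 13389 genes the median was 97.5 percent, and the median log2 fold change over all genes tested was 0.04.

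**Figure D1:**
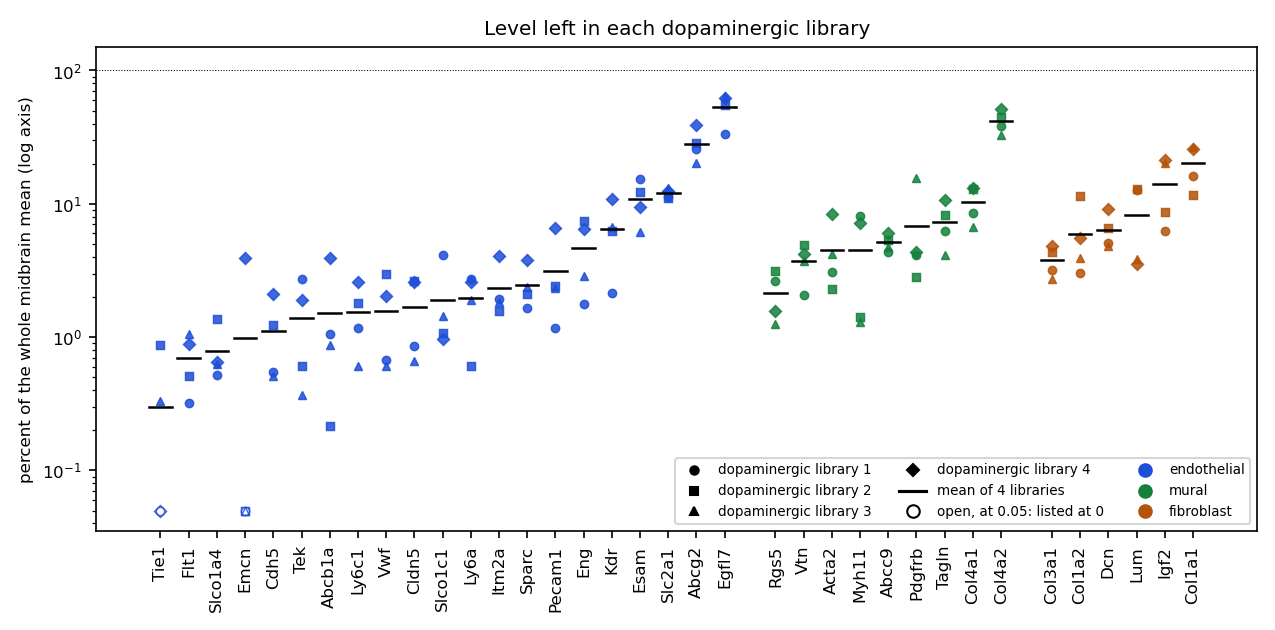
Percent of the whole midbrain mean FPKM left in each of the 4 dopaminergic libraries (y axis, log scale) for the 21 endothelial, 9 mural and 6 fibroblast genes (x axis), with a bar for the mean of the 4 libraries and open symbols for values listed at 0. Most endothelial genes lie under 5 percent, and Egfl7, Col4a2 and Abcg2 stand far above the rest of their class.

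Of 5 genes of the endothelial junctions and of adhesion, 4 were nearly absent from the dopaminergic libraries, and Esam kept more. Values below are FPKM, given for whole midbrain libraries 1 to 5 and then for dopaminergic libraries 1 to 4, and positions are the spans of the genes in the mm10 build. Cldn5, the main claudin of brain endothelial tight junctions (chromosome 16, 18776847 to 18778262, a single exon), stood at 6.62, 21.2, 7.69, 6.27 and 7.08 in whole midbrain and at 0.08397, 0.259, 0.0653 and 0.255 in dopaminergic libraries. Whole midbrain library 2 was at 319 percent of the mean of libraries 1, 4 and 5, and the groups did not overlap. The dopaminergic values correspond to about 5, 15, 5 and 19 reads, with exact Poisson 95 percent intervals of 1.62 to 11.7, 8.40 to 24.7, 1.62 to 11.7 and 11.4 to 29.7 reads that cover counting error only. The share left was 1.69 ± 1.08 percent (SD over 4 libraries, as for all shares below), and the log2 fold change was -3.06 (SE 0.30, limma adjusted p = 6.1e-06).

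Pecam1, an adhesion molecule of endothelial contacts (chromosome 11, 106654218 to 106715281), stood at 5.17, 6.096, 3.99, 4.88 and 5.48 and at 0.0599, 0.123, 0.119 and 0.335, where dopaminergic library 4 was the highest. Emcn, the sialomucin endomucin of capillaries and veins (chromosome 3, 137341078 to 137431069), stood at 5.77, 8.13, 6.78, 7.32 and 7.54 in whole midbrain. It was listed at 0 in dopaminergic libraries 1 to 3 and at 0.280 in library 4, well above the worth of 1 read per 1000 positions there (0.0165 FPKM), so its share rests on that library. An exact 0 in this table can also be a failed estimate. Cdh5, the cadherin of adherens junctions between endothelial cells (chromosome 8, 104101625 to 104144502), ranged over 3.896 to 5.88 and 0.0249 to 0.103 FPKM, with 1.103 ± 0.749 percent left. Esam, another endothelial adhesion molecule (chromosome 9, 37528089 to 37538319), ranged over 3.59 to 7.31 and 0.287 to 0.714 FPKM and kept a higher share, 10.8 ± 3.902 percent. The log2 fold changes of Pecam1, Emcn, Cdh5 and Esam were -2.40, -2.92, -2.46 and -1.89, with SE of 0.12, 0.12, 0.12 and 0.17.

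The receptors of vessel growth were low as well. Flt1, a receptor of vascular endothelial growth factor whose upstream sequence is printed above (chromosome 5, 147562196 to 147725988), stood at 9.63, 6.62, 9.44, 10.2 and 10.7 in whole midbrain and at 0.0299, 0.0479, 0.0982 and 0.0824 in dopaminergic libraries. Its share left, 0.694 ± 0.335 percent, was the lowest of those of the 36 genes that were above 0 in every library. Whole midbrain library 2 was the lowest of its group here, unlike for Cldn5. Kdr, the main signalling receptor of the same growth factor (chromosome 5, 75933270 to 75978428), ranged over 1.31 to 2.68 and 0.0424 to 0.215 FPKM, and its share of 6.47 ± 3.58 percent was above that of Flt1. Tek, the angiopoietin receptor (chromosome 4, 94739289 to 94874976), ranged over 3.59 to 4.39 and 0.0145 to 0.107 FPKM, with 1.396 ± 1.11 percent left. Eng, a co-receptor for transforming growth factor beta (chromosome 2, 32646595 to 32682669), ranged over 3.25 to 4.48 and 0.06899 to 0.2902 FPKM, with 4.62 ± 2.73 percent left. Tie1, the receptor that pairs with Tek (chromosome 4, 118471191 to 118489849), stood at 0.862, 2.04, 1.02, 1.498 and 1.08 in whole midbrain. In dopaminergic libraries 1 and 4 it was listed at 0, and in libraries 2 and 3 it was at 0.0113 and 0.00428, below the worth of 1 read per 1000 positions. The log2 fold changes of Flt1, Kdr, Tek and Eng were -3.26, -1.39, -2.22 and -2.05, with limma adjusted p of 1.2e-08, 8.3e-06, 1.8e-08 and 7.5e-08, and that of Tie1 without the filter was -1.17 (adjusted p = 5.0e-05).

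The 5 transporters of the blood-brain barrier split into 3 that were nearly absent and 2 that were not. Slco1a4, a carrier of organic anions (chromosome 6, 141805440 to 141856171), stood at 14.7, 21.9, 14.99, 17.6 and 16.9 and at 0.0895, 0.236, 0.109 and 0.112, with 0.793 ± 0.389 percent left. Slco1c1, a carrier of thyroid hormone (chromosome 6, 141524386 to 141570177), stood at 12.03, 13.7, 12.1, 11.3 and 12.7 and at 0.511, 0.133, 0.1799 and 0.1197, where dopaminergic library 1 was the highest. The 2 genes lie on chromosome 6 at a distance of 235262 bases. Abcb1a, which encodes the drug efflux pump P-glycoprotein (chromosome 5, 8660092 to 8748570), stood at 6.15, 6.198, 5.34, 6.34 and 6.38 and at 0.0635, 0.0131, 0.0527 and 0.237. Its exons share 553 bases with Gm42686 on the opposite strand, and the counting is not stated to use strand. Dopaminergic library 4 was the highest and library 2 the lowest for this gene.

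Slc2a1, the glucose transporter GLUT1 (chromosome 4, 119108745 to 119137329), was the most even of the 36 genes between libraries. It stood at 47.6, 45.5, 47.3, 50.6 and 49.8 in whole midbrain and at 5.45, 5.36, 6.35 and 6.003 in dopaminergic libraries, so 12.03 ± 0.971 percent was left. Its exons share 105 bases with Gm12868 on the opposite strand. Abcg2, another efflux pump of the barrier (chromosome 6, 58596672 to 58692451), stood at 6.02, 5.45, 6.47, 7.73 and 6.73 and at 1.67, 1.86, 1.302 and 2.51, with 28.3 ± 7.79 percent left. The groups of both genes were well apart, and the log2 fold changes were -2.86 (SE 0.071, limma adjusted p = 1.0e-09) and -1.41 (SE 0.13, adjusted p = 4.6e-06). Those of Slco1a4, Slco1c1 and Abcb1a were -3.99, -3.44 and -2.70.

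Among surface and secreted proteins of the endothelium, Sparc, a matrix-binding protein that glial cells also make (chromosome 11, 55394159 to 55420080), had the highest level of all 36 genes. It stood at 506, 793, 502, 496 and 517 in whole midbrain and at 9.22, 11.8, 13.4 and 21.3 in dopaminergic libraries. The share left, 2.48 ± 0.922 percent, was small, yet the remaining level was above that of any other of the 36 genes in the dopaminergic libraries. Its log2 fold change, -5.27 (SE 0.22, limma adjusted p = 2.1e-08), was the largest fall of the 33 tested genes on this scale, which understates the change of low genes. Ly6a and Ly6c1, neighbouring genes for membrane-anchored surface proteins on chromosome 15 (74994877 to 74998031 and 75044018 to 75048837), lie 45986 bases apart with no other row of the table between them. Ly6a stood at 41.8, 50.4, 37.7, 53.1 and 46.4 and at 1.25, 0.2796, 0.871 and 1.196, with library 2 the lowest of the dopaminergic group. Ly6c1 stood at 28.3, 52.2, 26.1, 27.9 and 28.9 and at 0.382, 0.592, 0.198 and 0.844, with library 3 the lowest. Members of this family are similar in sequence, so the split of reads between them is uncertain.

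Itm2a, a small membrane protein (chromosome X, 107397195 to 107403360), stood at 22.3, 34.2, 18.3, 26.1 and 24.96 and at 0.484, 0.395, 0.465 and 1.02, again with dopaminergic library 4 the highest. Vwf, the von Willebrand factor of blood clotting, which larger vessels make most (chromosome 6, 125552948 to 125686679), ranged over 0.757 to 3.44 and 0.0127 to 0.0625 FPKM, with 1.58 ± 1.15 percent left. The lowest whole midbrain value of Vwf was that of library 3. Egfl7, a secreted factor of the endothelium (chromosome 2, 26581056 to 26592682), differed from all of these: it stood at 13.6, 26.5, 12.7, 12.2 and 14.3 and at 5.24, 8.702, 10.1 and 9.92. Its dopaminergic libraries came close to the whole midbrain libraries without reaching them, library 1 was the lowest, and 53.6 ± 14.3 percent was left. Without whole midbrain library 2, which was the highest of its group, 64.4 percent was left. Over all 9 libraries the log2 fold change of Egfl7 was -0.81 (SE 0.24, limma adjusted p = 0.011), and without whole midbrain library 2 it was -0.61 (limma adjusted p = 0.0046). Its exons share 264 bases with Gm20532 on the same strand, so the split of reads between these genes is uncertain. The log2 fold changes of Ly6a, Ly6c1, Itm2a and Vwf were -4.65, -4.45, -4.03 and -1.52.

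**Figure D2:**
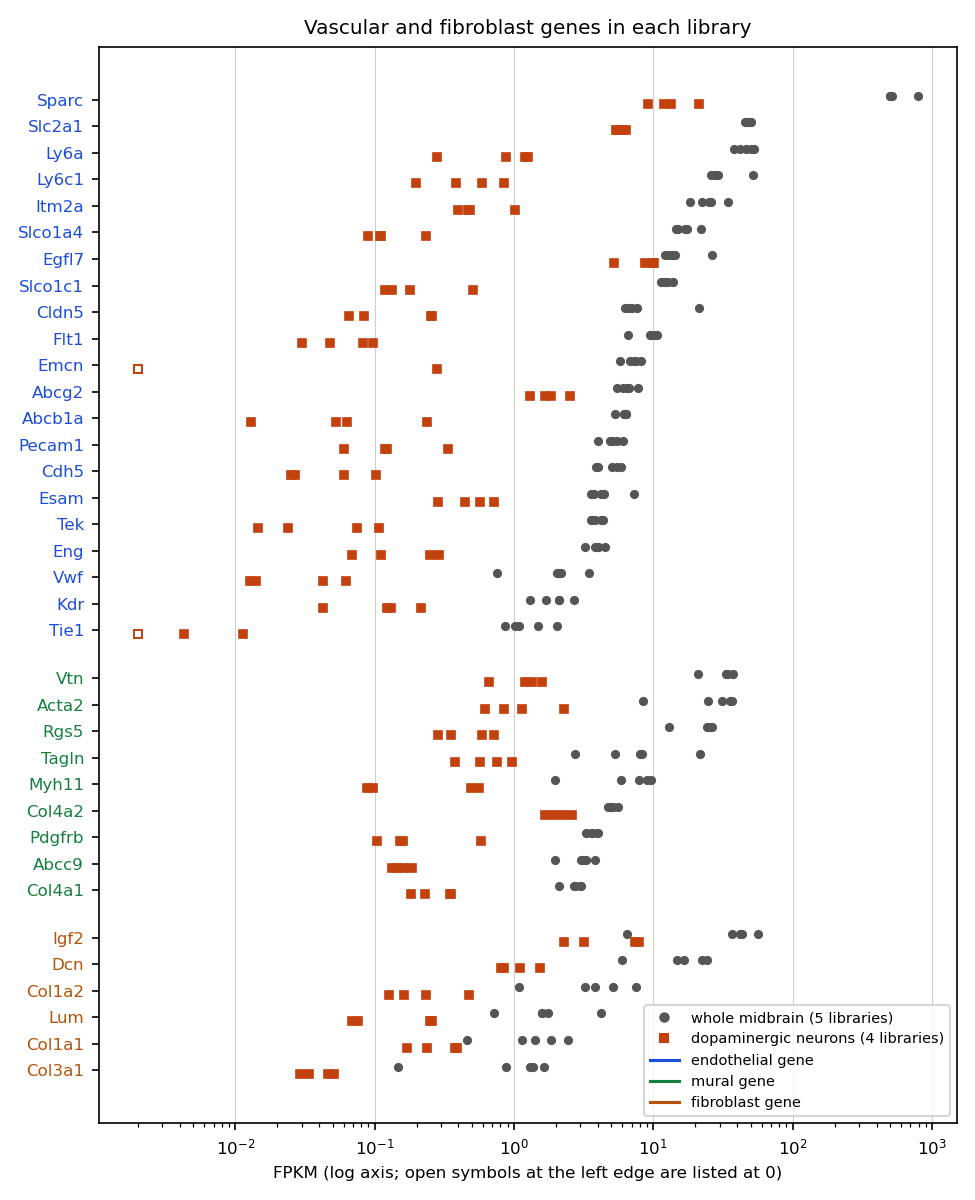
FPKM (x axis, log scale) of the 36 genes (y axis, by class and sorted by the whole midbrain mean) in the 5 whole midbrain libraries (circles) and the 4 dopaminergic libraries (squares), with open squares for values listed at 0. The groups are apart for 35 genes and overlap for Igf2, where 1 whole midbrain library lies among the dopaminergic ones.

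The 4 pericyte genes fell in a similar way. Rgs5, a regulator of G-protein signalling in pericytes (chromosome 1, 169655501 to 169693526), stood at 24.3, 13.0, 24.7, 26.3 and 25.3 and at 0.595, 0.715, 0.285 and 0.354. Whole midbrain library 2 was well below the rest of its group, and 2.14 ± 0.888 percent was left. Vtn, the matrix protein vitronectin (chromosome 11, 78499120 to 78502325), stood at 33.3, 33.7, 20.95, 37.5 and 34.5 and at 0.659, 1.59, 1.199 and 1.34, with library 3 the lowest in whole midbrain and 3.74 ± 1.22 percent left. Pdgfrb, the receptor that keeps pericytes on capillaries (chromosome 18, 61045150 to 61085067), ranged over 3.301 to 3.98 and 0.104 to 0.579 FPKM, and the highest dopaminergic value was that of library 3. Abcc9, a subunit of potassium channels that sense ATP (chromosome 6, 142587862 to 142702274), ranged over 1.97 to 3.79 and 0.133 to 0.185 FPKM, with 5.13 ± 0.747 percent left. The exons of Abcc9 share 158 bases with 5330439B14Rik on the opposite strand. The log2 fold changes of Rgs5, Vtn, Pdgfrb and Abcc9 were -3.97, -3.90, -1.92 and -1.79, with SE of 0.20, 0.18, 0.12 and 0.14.

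The contractile genes of smooth muscle varied widely among the whole midbrain libraries. Acta2, smooth muscle actin (chromosome 19, 34240336 to 34255373), stood at 24.6, 36.99, 8.402, 35.8 and 30.9 and at 0.847, 0.624, 1.14 and 2.304. Myh11, smooth muscle myosin (chromosome 16, 14194527 to 14291408), stood at 5.89, 9.56, 1.98, 9.03 and 7.94 and at 0.561, 0.0975, 0.0885 and 0.493. Tagln, the actin-binding protein transgelin (chromosome 9, 45929628 to 45936058), stood at 5.29, 21.6, 2.73, 8.297 and 8.03 and at 0.574, 0.756, 0.377 and 0.976. Whole midbrain library 3 was the lowest and library 2 the highest for all 3 genes, and the dopaminergic values still lay below library 3 for each. The shares left were 4.499 ± 2.73 percent, 4.51 ± 3.67 percent and 7.30 ± 2.78 percent, and without whole midbrain library 2 the share of Tagln was 11.02 percent. Tagln shares 108 exonic bases with Pcsk7 and 1241 with Gm48529, both on the opposite strand. The log2 fold changes were -3.57 (SE 0.39), -2.48 (SE 0.34) and -2.36 (SE 0.42), with limma adjusted p of 1.6e-05, 8.0e-05 and 4.6e-04.

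The chains of basement membrane collagen, which assemble into 1 protein, kept unequal shares. Col4a1 (chromosome 8, 11198423 to 11312826) and Col4a2 (chromosome 8, 11312829 to 11449287) lie head to head with 2 bases between them. Col4a1 ranged over 2.11 to 3.04 and 0.181 to 0.355 FPKM, with 10.3 ± 3.21 percent left (log2 fold change -1.53, SE 0.11). Col4a2 stood at 4.99, 5.11, 4.696, 4.94 and 5.61 and at 1.94, 2.27, 1.67 and 2.59, with 41.7 ± 7.87 percent left (log2 fold change -0.97, SE 0.10). Both genes were lower in every dopaminergic library than in any whole midbrain library.

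The fibroblast genes varied as widely among the whole midbrain libraries, with library 3 the lowest for all 6. Dcn and Lum encode the proteoglycans decorin and lumican, which bind collagen fibrils, and are neighbours on chromosome 10 (97479500 to 97518162 and 97565501 to 97572703). Dcn stood at 14.8, 24.3, 5.997, 22.3 and 16.5 and at 0.845, 1.103, 0.807 and 1.54, with 6.41 ± 2.02 percent left and a log2 fold change of -2.98 (SE 0.33, limma adjusted p = 1.5e-05). Lum ranged over 0.714 to 4.201 and 0.0693 to 0.256 FPKM, with 8.26 ± 5.29 percent left. Its log2 fold change was -1.26 (SE 0.26, limma adjusted p = 0.0014). After quantile normalization Lum lost this call, with a limma adjusted p of 0.111 that was the highest over its settings (the lowest was 2.4e-05), and the others of the 33 kept theirs under every alternative in which they were tested.

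Of the fibrillar collagens, Col1a1 and Col3a1 were low in both groups, with whole midbrain means of 1.46 and 1.07 FPKM. That of Col1a2 was 4.17 FPKM. Col1a2, a chain of type I collagen (chromosome 6, 4505697 to 4541543), ranged over 1.09 to 7.55 and 0.127 to 0.475 FPKM, with 5.98 ± 3.77 percent left and a log2 fold change of -1.91. Col1a1, its partner chain (chromosome 11, 94936270 to 94951856), stood at 1.15, 2.43, 0.458, 1.86 and 1.42 and at 0.239, 0.171, 0.388 and 0.377, with 20.1 ± 7.28 percent left. Col3a1, the chain of type III collagen (chromosome 1, 45311538 to 45349706), stood at 0.880, 1.38, 0.147, 1.64 and 1.303 and at 0.0339, 0.0465, 0.0293 and 0.0512, with 3.76 ± 0.963 percent left. Library 3 of whole midbrain, the lowest of its group for all 3, still lay above every dopaminergic library. Without the filter on low values, Col1a1 and Col3a1 had log2 fold changes of -0.88 and -0.94 (limma adjusted p = 0.0067 and 0.0045). The exons of Col3a1 share 141 bases with Gm47302 on the same strand.

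Igf2, insulin-like growth factor 2, which meningeal and perivascular fibroblasts make (chromosome 7, 142650768 to 142661035), was the 1 gene whose groups overlapped. It stood at 36.7, 41.6, 6.45, 56.4 and 43.3 in whole midbrain and at 2.29, 3.198, 7.401 and 7.895 in dopaminergic libraries. Whole midbrain library 3 lay below dopaminergic libraries 3 and 4, and all other whole midbrain libraries lay far above them. The share left was 14.1 ± 7.76 percent, and the log2 fold change was -2.47 (SE 0.57, limma adjusted p = 0.0026). Igf2 and Gm49394 have 3596 exonic bases in common on 1 strand, so the split of reads is uncertain.

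Whole midbrain library 3 was low in fibroblast and contractile genes, and less so in most endothelial and pericyte genes. It was the lowest of the 5 libraries for 6 of 6 fibroblast, 7 of 9 mural and 7 of 21 endothelial genes. Relative to the mean of libraries 1, 4 and 5, the median fibroblast gene stood at 28.9 percent in library 3 (range 11.5 to 43.4 percent) and the median contractile gene at 27.6 percent (25.9 to 37.9 percent). The median pericyte gene stood at 92.9 percent (59.7 to 99.1 percent) and the median endothelial gene at 91.8 percent, with Vwf as the lowest at 36.1 percent. On separate lists outside the 36, the median of 30 other fibroblast and meningeal genes was 31.5 percent and that of 14 other smooth muscle genes 49.98 percent. The median of 16 other basement membrane genes was 71.6 percent, that of 20 other pericyte genes 84.8 percent and that of 16 astrocyte markers 101.5 percent. Single genes of that pericyte list ran from 13.0 percent (Slc6a20a) to 157 percent (Cox4i2), with Anpep at 40.3 percent and Higd1b at 40.4 percent. Library 2 was the highest for 20 of the 36 genes, comprising 12 endothelial, 4 mural and 4 fibroblast genes, with class medians of 118, 105 and 150 percent, and the lowest for 8, among them Flt1, Kdr, Rgs5 and Abcc9. The median of 8 rows of red blood cell genes was 413 percent in library 2. However, all of these rows but that of Alas2 are of globin genes, whose similar copies can trade reads. Hbb-bt stood at 235 FPKM in library 2 and at a mean of 90.5 FPKM in the other whole midbrain libraries. Likewise Hbb-b1 stood at 233 and 109 FPKM, and reads traded with Hbb-bs make the values of both genes uncertain. Alas2, which is no globin gene, stood at 2.19 and 2.89 FPKM. The part of red blood cells in the values of the vessel genes was not tested. The part of meningeal tissue or of large vessels in these differences was not tested.

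**Figure D3:**
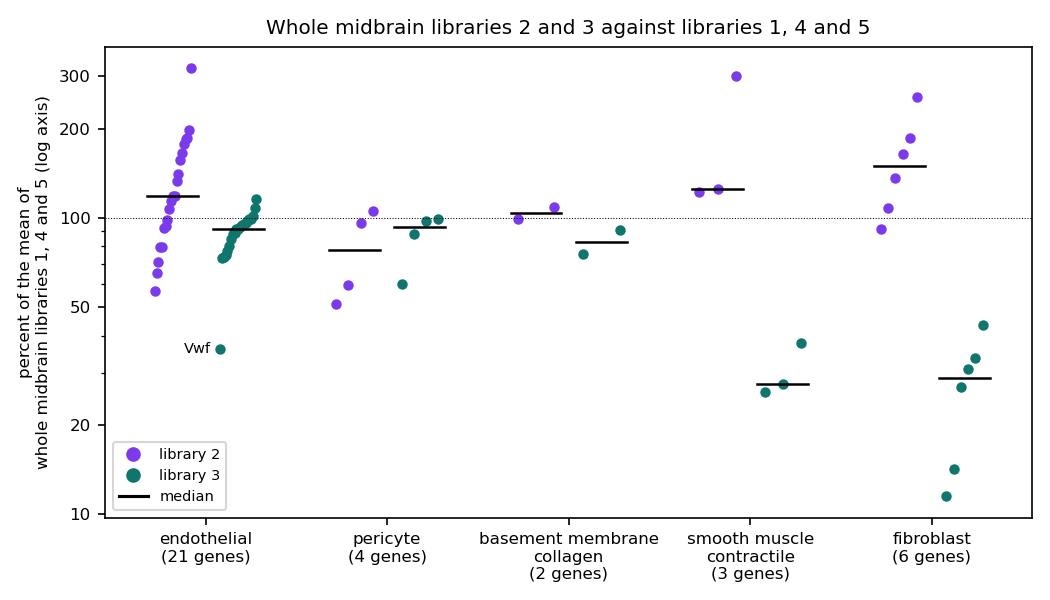
Level of each gene in whole midbrain libraries 2 and 3 as percent of the mean of whole midbrain libraries 1, 4 and 5 (y axis, log scale), by class of gene (x axis), with a bar for the median. In library 3 the 6 fibroblast and 3 contractile genes lie between 11.5 and 43.4 percent, while the pericyte genes lie between 59.7 and 99.1 percent.

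The dopaminergic libraries also differed among themselves. Library 4 was the highest of the 4 for 17 of the 36 genes and held the highest endothelial and mural medians given above. Markers of other cell types stood higher there too: the median astrocyte marker kept 4.504, 6.03, 4.87 and 7.18 percent of its whole midbrain mean in libraries 1 to 4, and the median oligodendrocyte marker 11.6, 16.6, 11.6 and 20.2 percent. Library 2 was next for both lists. The median marker of microglia and macrophages kept 5.65, 9.43, 7.48 and 8.57 percent, and that of oligodendrocyte precursors 18.1, 19.4, 21.2 and 28.3 percent. In all 4 libraries the endothelial median was the lowest of these lists. The part of RNA from other cells in the values of the 36 genes was not tested.

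**Figure D4:**
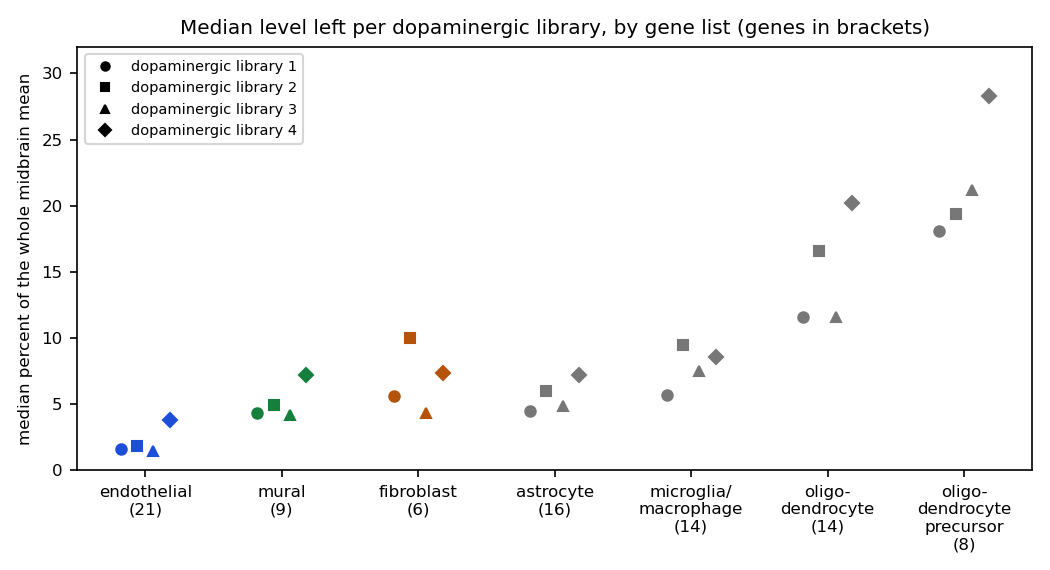
Median percent of the whole midbrain mean left in each dopaminergic library (y axis) for the 3 classes of vessel and fibroblast genes and 4 lists of glial markers (x axis, number of genes in brackets). The endothelial medians, 1.45 to 3.78 percent, lie below those of every other list in the same library.

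Within families, the partner gene of a vessel gene could behave differently, and 5 such pairs, chosen after their values were seen, are given as ratios without a test. The ratio of Col4a2 to Col4a1 was 1.68 to 2.22 in whole midbrain and 6.48 to 9.22 in dopaminergic libraries, a log2 difference of 2.05 that was 0.56 with 1 FPKM added to both genes. The glucose transporter of neurons, Slc2a3 (GLUT3), stood at 14.4 to 29.8 FPKM in whole midbrain and 20.5 to 23.6 in dopaminergic libraries. Its ratio to Slc2a1 was 0.317 to 0.630 and 3.22 to 4.30, so the order of the pair was the opposite in the 2 groups.

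Channels that couple ATP to membrane potential pair a pore with a sulfonylurea receptor, and vessels use Kcnj8 with Abcc9 where neurons use Kcnj11 with Abcc8. Kcnj8 ranged over 2.27 to 4.003 FPKM in whole midbrain and 0.0315 to 0.327 in dopaminergic libraries, and Kcnj11 over 3.96 to 5.43 and 4.34 to 6.08. The ratio of Kcnj11 to Kcnj8 was 1.19 to 2.06 and 18.6 to 172, and that of Abcc8 to Abcc9 was 0.791 to 1.57 and 5.81 to 8.85. With 1 FPKM added to both genes, the log2 differences of these ratios between the groups were 1.85 rather than 4.88 and 0.79 rather than 2.69. Kcnj8 fell (log2 fold change -1.76), Abcc8 fell to 34.1 percent of its whole midbrain mean, and Kcnj11 did not pass (0.095, limma adjusted p = 0.44). Igf1, insulin-like growth factor 1, ranged over 3.77 to 5.28 FPKM in whole midbrain and 19.4 to 24.6 in dopaminergic libraries, and rose by 2.01 on the log2 scale. Its ratio to Igf2 was 0.0869 to 0.643 and 2.46 to 10.7. For none of the 5 pairs did the ratios of the groups overlap, and a change in 1 gene alone suffices for this.

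**Figure D5:**
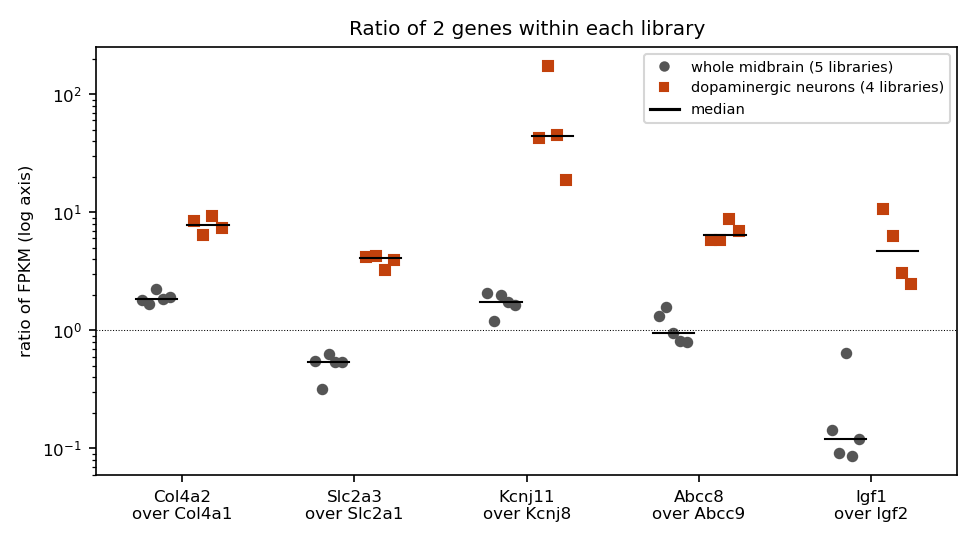
Ratio of the FPKM of 2 genes within each library (y axis, log scale) for 5 pairs (x axis) in the 5 whole midbrain and 4 dopaminergic libraries, with a bar for the median. All dopaminergic ratios lie above all whole midbrain ratios of the same pair.

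Further genes of vessels and the barrier, on lists set apart from the 36, were mostly lower. Since the filter keeps many of them through their whole midbrain level alone, the counts and median log2 fold changes of the lists are given without it, to be read against 34.2 percent of all genes that were lower, 25.9 percent that were higher and a median of -0.04. Of 23 transcription factors of endothelial cells, 23 fell (median -1.02). Epas1, a factor that responds to low oxygen, stood at 43.7 ± 2.16 FPKM (SD, n = 5) in whole midbrain and 6.402 ± 0.942 (SD, n = 4) in dopaminergic libraries, and the shear-responsive factor Klf2 at 4.05 ± 4.25 and 0.0932 ± 0.0544 FPKM. The whole midbrain mean of Klf2 was raised by library 2, with 11.6 FPKM against a mean of 2.16 FPKM of the other whole midbrain libraries, and without it the log2 fold change of Klf2 was -1.52 rather than -1.92. Among 32 vascular ligands, receptors and Notch genes, 25 fell and 4 rose (median -1.02), but of the 22 that passed the filter 4 were higher in FPKM, 2 under upper-quartile scaling and 0 as TPM. S1pr1, a receptor of sphingosine 1-phosphate that astrocytes also express, had a log2 fold change of -3.83 and kept 4.64 percent of its level, and Ptprb, a phosphatase of the endothelium, had a log2 fold change of -2.97. Pdgfa and Vegfb, both growth factors, had log2 fold changes of 0.94 and 0.84, calls that ended when FPKM was rescaled to TPM (limma adjusted p = 0.160 and 0.174, the highest of all settings, the lowest being 2.4e-08 and 2.7e-07). Vegfa, the main growth factor of vessels, was at 20.1 ± 2.41 and 6.902 ± 0.615 FPKM and had a log2 fold change of -1.41.

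Of 31 other barrier genes 26 fell and 1 rose (median -1.52). The amino acid transporter Slc38a3 fell to 3.46 percent and the organic anion transporter Slc22a8 to 2.74 percent of the whole midbrain mean. The claudin gene Cldn12 rose by 0.38 on the log2 scale, but its direction was the opposite as TPM (-0.29) and the call ended under upper-quartile scaling (limma adjusted p = 0.0714). Plvap, a protein of leaky vessels that the mature barrier lacks, did not pass (-0.11, limma adjusted p = 0.5). Its value ran from -0.73 as TPM, where it was called lower (limma adjusted p = 0.000375), to 0.34 under quantile normalization, where it was not called. It stood at 2.58 ± 0.785 FPKM in whole midbrain and 2.27 ± 0.162 in dopaminergic libraries. Of 16 genes of Wnt signalling at the barrier 14 fell and 0 rose (median -0.78), among them the Frizzled receptor gene Fzd6 at -1.37 and Reck, which encodes a membrane-anchored protein, at -1.30.

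Of 22 other pericyte genes 20 fell and 0 rose (median -1.39). Among them the transporter Slc6a20a had a log2 fold change of -2.61. Of 20 other smooth muscle genes 17 fell, led by the actin-binding protein Cald1 and the myosin light chain Myl9 at -2.99 and -2.91, and 2 rose (median -1.05). The 2 were Sncg, gamma-synuclein, which dopaminergic neurons express strongly (54.3 ± 5.89 and 838 ± 50.3 FPKM), and the tropomyosin Tpm1 at 0.48, whose direction was the opposite under quantile normalization (-0.20) and as TPM (-0.22). Of 25 other basement membrane genes 24 fell (median -0.94), while the laminin chain Lamb1 stood at 0.889 and 0.863 FPKM. Among those that passed the filter, the largest falls on the log2 scale were those of Fn1, fibronectin (-3.01), and of the laminin receptor Itga6 (-2.35). They stood at 2.14 and 8.45 percent of the whole midbrain mean. Several lower genes of the list kept smaller shares than Itga6, such as Lamb2 with 2.96 percent and Itga1 with 3.51 percent. Of 40 other fibroblast and meningeal genes 38 fell and 1, the transcription factor gene Twist1, rose (0.565 and 1.34 FPKM, median of the list -1.23). Twist1 was at 1.68 FPKM in whole midbrain library 2, and its mean over the other whole midbrain libraries was 0.286 FPKM. Ptgds, prostaglandin D synthase, stood at 686 to 3253 and 77.7 to 238 FPKM, with whole midbrain library 3 at 25.8 percent of the mean of libraries 1, 4 and 5, and the gap junction gene Gjb6, also on the astrocyte list, had a log2 fold change of -3.76.

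Of 10 insulin-like growth factor genes 6 fell and 1, Igf1, rose (median -0.84), with the binding proteins Igfbp7 and Igfbp2 at 2.57 and 33.8 percent of the whole midbrain mean. Of 8 glucose transporters 5 fell and 1 rose (median -0.39), and apart from Slc2a1 the calls of those that passed the filter varied with the setting. Slc2a13 was called lower (-0.23), a call that ended in 8 of 22 settings (limma adjusted p up to 0.143). Slc2a6 was called higher (0.28), a call that ended in 6 of 21 settings (limma adjusted p up to 0.451) and had the opposite direction as TPM (-0.34). Slc2a3 (-0.10) did not pass, but was called lower in 3 of 22 settings, as TPM (-0.80), with library weights (-0.26) and without whole midbrain library 2 (-0.28, limma adjusted p = 0.00146). Slc2a8 (0.30) did not pass, but was called in 6 of 22 settings, higher in 5 of them and lower as TPM (-0.32). The transporters Slc2a4, Slc2a10 and Slc2a12 did not reach the filter and stood at 6.64, 8.79 and 7.79 percent of their whole midbrain means of 0.573, 0.535 and 0.953 FPKM.

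Markers of glial cells of the tissue fell beside the vessel genes. All 16 astrocyte markers fell (median -3.71), as did all 14 oligodendrocyte markers (median -2.64) and 15 of 16 markers of microglia and macrophages (median -2.11). Of 9 ependymal and choroid plexus genes 3 fell (median -0.73), a share near that of all genes. Among the leading genes, Apoe kept 3.75 percent, Mbp 3.84 percent, Ctss 3.50 percent, C1qb 5.07 percent and Rarres2 10.7 percent. Tmem212 of ependymal cells stood at -1.44 and was called with the filter (limma adjusted p = 0.039). Without the filter it was not called (limma adjusted p = 0.06), so it is not among the 3 genes above. Its call ended in 9 of 21 settings (limma adjusted p up to 0.244). Tmem212 stood at 10.2 FPKM in whole midbrain library 2 against a mean of 1.83 FPKM of the other whole midbrain libraries. Of 8 oligodendrocyte precursor markers 7 fell, with shares from 7.86 percent for Pdgfra and 11.5 percent for Gpr17 over 17.5 percent for Cspg4, 18.1 percent for Sox10, 22.9 percent for Olig1 and 24.4 percent for Olig2 to 59.5 percent for Lhfpl3, and Cspg5 did not pass (-0.57) in 18 of 22 settings. Red blood cells were represented by 8 rows of 6 genes, of which 5 fell. The haem synthesis gene Alas2 kept 7.87 percent, Hbb-bt 15.8 percent and Hbb-b1 17.7 percent. The values of Hba-a1, Hba-a2 and Hbb-bs, whose near-identical copies can trade reads, are not read further, with 2 of their 5 rows called lower. Hbb-bs can trade reads with Hbb-bt and Hbb-b1, so the shares of these genes are uncertain as well.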

How the data were processed

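Each of the 9 libraries (5 of whole midbrain, 4 of midbrain dopaminergic neurons) has 1 column in a deposited table of FPKM, which the authors made with TopHat2 2.0.8 and Cufflinks 2.1.1 on the mm10 build, per the submitters' processing notes. Neither the annotation and options nor the use of strand is stated in those notes or the labels. Whole midbrain values carry more digits than the dopaminergic ones, a difference in form that coincides with the groups. FPKM are not counts, so limma 3.58.1 in R 4.3.3 was fitted to log2(FPKM + 1) of all rows with a mean of at least 1 FPKM (two-sided moderated test, mean-variance trend, no covariate, 7 residual and about 3 prior degrees of freedom, Benjamini-Hochberg adjustment, threshold 0.05), after it was tested on simulated data. Single-exon receptor genes gave an estimate of depth, assuming fragments of 200 bases and keeping genes that agreed within 1 percent. The estimate is rough in both groups, with 8 to 31 such genes per whole midbrain library and 8 to 12 per dopaminergic library. The share left is the FPKM of a dopaminergic library over the mean of the whole midbrain libraries, and its median over a list used genes with a whole midbrain mean of at least 1 FPKM.

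All 36 genes are named. Values in every library are given for those with a whole midbrain mean of at least 5 FPKM, those listed at 0 in a library and those not called, and ranges for the rest. From every other list the 2 called genes with the largest fall and up to 2 with the largest rise are named, and lists of 8 or fewer genes in full, except where a result is not reported here. Genes, lists and tests were chosen with earlier results of these data known, and the pairs, motifs, printed sequences, Vegfa, Plvap, Lamb1 and Twist1 after values were seen. Exon overlaps of at least 100 bases came from the GENCODE M21 annotation, and upstream sequences from RefSeq. Whether equal replicate numbers pair the libraries was checked by correlating deviations from the group means. Alternatives were pseudocounts of 0.1 and 5, no filter, a minimum of 5 FPKM, no genes listed at 0, quantile normalization, median centring, upper-quartile scaling, rescaling to TPM (small RNA and mitochondrial genes left out), weights per library, a fit with no trend, a block for the replicate number, leaving out each library, and, added after the data were seen, 1 FPKM added to both genes of a pair. Other steps used NumPy 2.4.6 and SciPy 1.17.1 with pandas 2.3.3 in Python 3.11.15, and figures were drawn with matplotlib 3.10.9.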

Additional observations from a re-analysis of the deposited data

Results flagged for a closer look

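Among 72 sets of values, 36 genes in each of the 2 groups, 13 had a highest or lowest library far from the others by Dixon's criterion, and so did the median share left of the endothelial genes. Chance alone flags about 1 in 20 such sets. Whole midbrain library 2 stood apart in 6 sets: it was the highest for Cldn5 (21.25 FPKM, the others 6.269 to 7.69), Ly6c1 (52.21, the others 26.06 to 28.91), Esam (7.306, the others 3.585 to 4.423), Egfl7 (26.47, the others 12.16 to 14.34) and Sparc (792.9, the others 496.4 to 516.6), and the lowest for Rgs5 (13.00, the others 24.3 to 26.33). Whole midbrain library 3 was the lowest for Abcb1a (5.338 FPKM, the others 6.146 to 6.376) and Vtn (20.95, the others 33.26 to 37.49).

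In the dopaminergic group, library 4 was the highest for Itm2a (1.023 FPKM, the others 0.3949 to 0.484) and for Emcn (0.2803, the others listed at 0). Library 2 was the highest for Slco1a4 (0.2356 FPKM, the others 0.08946 to 0.1117), library 1 for Slco1c1 (0.5106, the others 0.1197 to 0.1799) and library 3 for Pdgfrb (0.5794, the others 0.1038 to 0.1612). The median endothelial gene kept 3.78 percent of its whole midbrain level in dopaminergic library 4, against 1.45 to 1.81 percent in libraries 1 to 3.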

How the results depend on the processing

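No call of the 36 genes changed direction in any setting, and in each setting that was fitted every tested gene of the 36 lay below the median of all genes, which moved from 0.04 to 0.11 under quantile normalization and median centring, -0.16 under upper-quartile scaling, -0.60 as TPM and 0.26 with a minimum mean of 5 FPKM. Relative to that median the log2 fold changes ran from -5.31 to -0.85 in the main setting and from -5.43 to -0.93 as TPM. A minimum mean of 5 FPKM left 10 endothelial, 4 mural and 2 fibroblast genes, all lower, because fewer genes were tested. Over all genes, 4717 were lower and 5014 higher, against 2493 and 4177 with that minimum, 5673 and 3872 under upper-quartile scaling and 7667 and 2069 as TPM. The median shares left of 5.17 percent (mural) and 6.85 percent (fibroblast) were 3.20 and 4.31 percent as TPM, and the fibroblast share was 10.2 percent when genes needed 5 FPKM in whole midbrain, which leaves 2 genes. As TPM the log2 fold changes turned to -0.29 for Cldn12, -0.22 for Tpm1, -0.34 for Slc2a6, -0.55 for Kcnj11 and -0.32 for Slc2a8, and that of Tpm1 was -0.20 under quantile normalization, where Lum also lost its call (-0.54, limma adjusted p = 0.111). The cause of these changes was not tested. Leaving out 1 library gave 19 to 20 endothelial, 9 mural and 3 to 5 fibroblast genes that were lower. In each case these were all genes of the class that passed the filter, so only the filter moved the counts. Over all genes 4445 to 4974 were lower. The median shares were 1.63 to 2.41, 4.5 to 5.49 and 5.79 to 9.05 percent, and the 9.05 percent, without whole midbrain library 2, rests on 5 genes. Same-numbered libraries of the 2 groups did not deviate together (r of -0.0389, -0.0498, 0.0067 and 0.0190, against -0.09475 to 0.0787 for libraries with different numbers). These values gave no sign of pairing by number. They cannot exclude a shared source, since small deviations may not carry it. With the replicate number as a block, 20 endothelial, 9 mural and 4 fibroblast genes and 4355 genes in all were lower, and no call of the 36 genes changed. With 1 FPKM added to both genes, none of the 5 pair ratios changed direction. Depth limits genes at or near 0 in every dopaminergic library, such as Tie1.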
